A study of Mus musculus with 8 samples.

Results

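The genes described here are 10 regulators that act through ubiquitin on NF-kB signalling: Tnfaip3, which encodes A20, the A20-binding genes Tnip1, Tnip2 and Tnip3, the deubiquitinase gene Cyld, the ubiquitin ligase genes Birc2, Birc3 and Rnf19b, and the adaptor genes Traf1 and Traf2. They were taken from the deposited expression table as the probe sets whose number is the Entrez gene number of a named gene, and all 10 were found among 24011 genes. Total RNA of primary mouse bone marrow-derived macrophages was measured on 8 Affymetrix whole-transcript arrays. The cells came from wild-type mice of 8 to 10 weeks and were grown for 7 days with L cell-conditioned medium, a source of the macrophage growth factor M-CSF. They were reseeded at 150000 cells per well, and the next day 4 samples received hepcidin at 10 µg/ml and 4 received PBS for 1 h before lysis. Hepcidin, a peptide hormone of iron balance, acts on the iron exporter ferroportin, and the comparison asked which genes of these cells respond within 1 h. The sources used here give neither strain nor sex nor the number of animals. Samples are numbered 1 to 4 in both groups, with no statement of whether a number marks an animal, a culture or a day. The p-values therefore measure the spread between these samples only, and that spread may be technical.

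NF-kB is held in the cytoplasm by inhibitor proteins of the IκB family. Receptors for TNF and for microbial products release it through complexes in which ligases such as the Birc2 and Birc3 products attach ubiquitin chains that recruit the kinases of the pathway. A20 and the Cyld product remove such chains or break up the complexes, and the TNIP proteins bind A20. Tnfaip3, Birc3, Traf1 and Tnip1 are themselves textbook targets of NF-kB, so the pathway induces several of its own regulators.

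The promoter sequences below are shown because NF-kB acts on several of these genes through sites near their start. All 10 genes had a RefSeq promoter window (build GRCm38.p6) of 250 bases before and 50 after a start, 12 windows in all. The windows were searched on both strands for the NF-kB consensus, which runs GGG, a purine, any base, A or T, a pair of pyrimidines and CC. The consensus was present in 4 of the 10 genes, Tnfaip3, Tnip1, Tnip3 and Cyld, against 5.14% of 27025 genes (4.51% of 32851 windows). The windows of 100 bases that follow all lie before the start and are written 5′ to 3′ on the gene's strand, with the bases matched by the consensus on either strand in capitals.
Tnfaip3 (chr10:19015411-19015510, minus strand, positions -100 to -1): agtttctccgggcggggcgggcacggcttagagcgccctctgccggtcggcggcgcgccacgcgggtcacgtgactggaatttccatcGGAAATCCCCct
Tnip1 (chr11:54962941-54963040, minus strand, positions -100 to -1): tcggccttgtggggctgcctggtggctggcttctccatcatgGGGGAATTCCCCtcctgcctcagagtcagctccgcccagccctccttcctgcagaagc
Tnip3 (chr6:65590298-65590397, plus strand, positions -100 to -1): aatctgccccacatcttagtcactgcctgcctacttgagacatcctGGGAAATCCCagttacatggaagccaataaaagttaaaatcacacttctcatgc
Cyld (chr8:88696828-88696927, plus strand, positions -200 to -101): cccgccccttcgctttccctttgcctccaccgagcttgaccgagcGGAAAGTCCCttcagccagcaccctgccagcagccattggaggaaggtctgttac

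In Tnfaip3 the match GGGGATTTCC lay on the opposite strand at positions -12 to -3, and a further match, GGGACACCCC, lay at -125 to -116, outside the printed stretch. In Tnip1, 4 overlapping matches on the 2 strands covered positions -58 to -47. The Tnip3 match at -54 to -45 read as GGGAAATCCC on the gene's strand, and the Cyld match at -155 to -146 as GGGACTTTCC on the opposite strand. Birc3 and Rnf19b are printed for comparison, since their log2 differences between the groups (0.34 each) lay close to that of Tnip1 (0.35) and their windows held no match.
Birc3 (chr9:7873171-7873270, minus strand, positions -100 to -1): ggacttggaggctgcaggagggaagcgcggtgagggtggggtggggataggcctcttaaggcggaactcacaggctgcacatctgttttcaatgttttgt
Rnf19b (chr4:129058044-129058143, plus strand, positions -100 to -1): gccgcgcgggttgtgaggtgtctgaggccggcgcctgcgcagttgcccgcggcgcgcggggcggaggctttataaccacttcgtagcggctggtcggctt

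A match is a description of these letters, and no match says only that they are not in this window. Of the 4 genes with a consensus match, Tnfaip3 had the largest difference between hepcidin and PBS of the 10 genes, and Cyld had the difference closest to 0, as the values below show.

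Levels are the authors' RMA values on a log2 scale, on which a step of 1 doubles the signal. Of 10 measured macrophage markers, 9 had a mean PBS level of 8.31 or more. Adgre1 stood at 11.38, Csf1r at 11.77 and Cd68 at 13.12 with PBS, while Cd163 was at 5.02. As a gauge of background, 28 genes that mark B cells, T or NK cells or endothelium had a median PBS level of 3.88 and a 90th percentile of 5.54. All 10 regulators lay above that percentile on all 8 arrays. The highest of the 28 stood at 7.53, however, above the mean PBS levels of Birc2 (6.52), Traf2 (7.08) and Traf1 (7.42). Mean PBS levels of the 10 ran from 6.52 for Birc2 to 11.69 for Tnip3. Probe sets respond differently to the same amount of RNA, so no order of transcript abundance is read from these levels. Medians of the arrays lay between 4.87 and 4.95. Both arrays numbered 1 stood apart in a list of 11 neutrophil and precursor markers, with a mean level of 4.55 (PBS) and 4.35 (hepcidin) against 5.29 to 5.80 on the other 6 arrays. In bulk RNA, fewer cells of a type and less RNA per cell cannot be told apart.

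**Figure D1:**
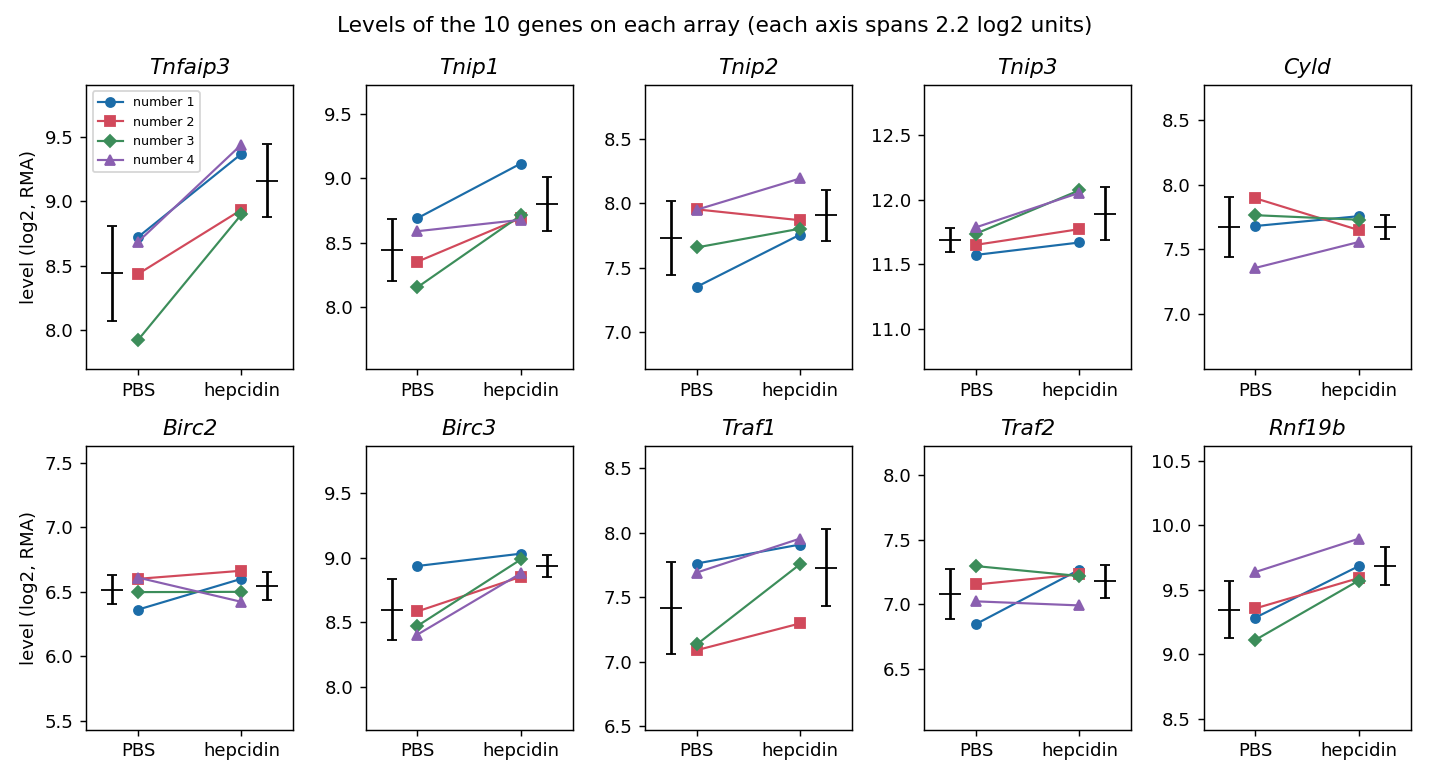
Level of each of the 10 genes (log2 RMA value, vertical axis, each spanning 2.2 units) on the PBS and hepcidin arrays; lines join arrays with the same number, and black marks give the mean ± SD of the 4 arrays of a group. Tnfaip3 is the gene in which the highest PBS array (8.72) lies below the lowest hepcidin array (8.90).

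With hepcidin, Tnfaip3 mRNA was 1.64-fold higher than with PBS and higher in each of the 4 pairs that share a number. Tnip1, Birc3 and Rnf19b were 1.28-fold, 1.26-fold and 1.26-fold higher, also in 4 of 4 pairs. Tnip3 (1.15-fold) and Traf1 (1.24-fold) were higher in all 4 pairs as well, with a larger standard error (SE) relative to their log2 difference. Tnip2 and Birc2 were higher in 3 of 4 pairs, and Cyld and Traf2 in 2 of 4. None of these differences passed correction over all genes. In limma, which tests each gene with a spread that borrows from all genes, 0 of 10 had an adjusted p under 0.05 after Benjamini-Hochberg adjustment over 24011 genes, and 0.00% of all genes did. At an unadjusted p under 0.05, 4 of the 10 were higher (Tnfaip3, Tnip1, Birc3 and Rnf19b) and 0 lower, against 1.33% of all genes higher, or 0.873% of the 9274 genes whose mean level was 6 or more, to which all 10 belong. Without the PBS array numbered 3, which had the lowest PBS level of Tnfaip3, Tnip1 and Rnf19b, 2 of the 10 had such a p, Tnfaip3 and Birc3. The share of all genes was not counted in that fit. The median log2 difference (hepcidin minus PBS) of the 10 genes was 0.26, and that of all genes 0.00090. In pairs 1 to 4 the median over the 10 was 0.32, 0.16, 0.40 and 0.25, so pair 2 showed the smallest and pair 3 the largest difference. Higher in all 4 pairs were 6 of the 10, against 5.69% of all genes. The 10 genes were chosen with earlier results of these data known, so these shares only describe them.

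Arrays with the same number resembled each other, so limma was also run with the number as a block, which takes differences between numbers out of the spread. The median SE over the 10 genes was 0.12 without the block and 0.091 with it. With the block 6 of the 10 were higher at an unadjusted p under 0.05, against 2.34% of all genes, Tnip3 and Traf1 in addition to the 4 named, and again 0 of 10 passed over all genes, against 0.00416%. With the number as a random block 5 were higher at such a p, against 2.37% of all genes, and 0 of 10 passed over all genes, against 0.0208%.

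**Figure D2:**
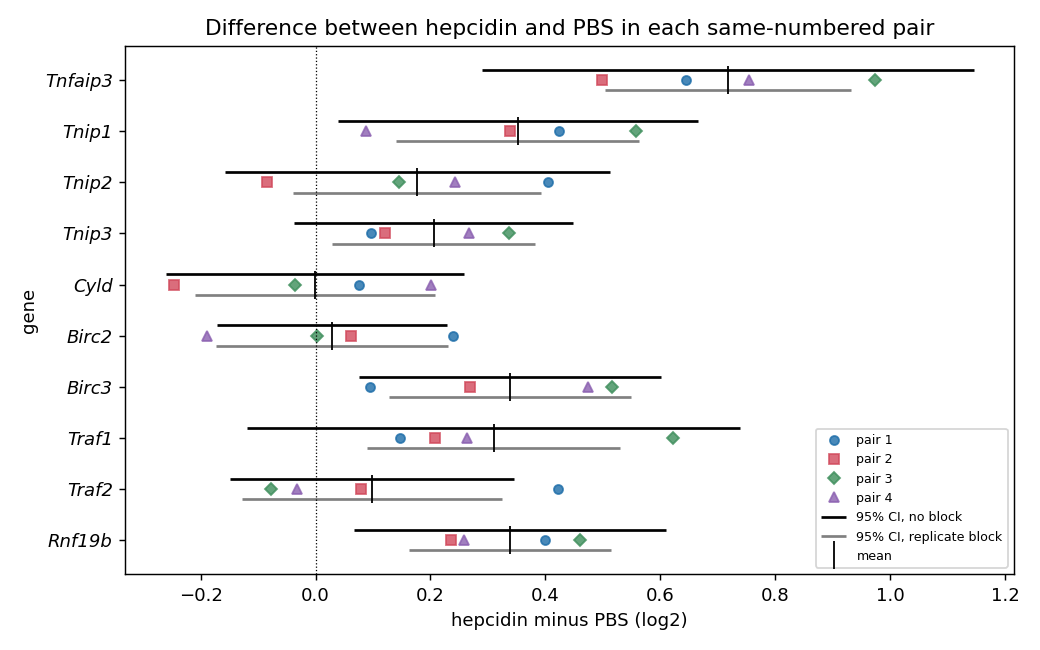
Difference in log2 level between hepcidin and PBS (horizontal axis) for each gene, as points for the 4 same-numbered pairs, a bar at the mean and 95% confidence intervals from limma without (black) and with (grey) the replicate block. The 4 points of Tnfaip3 lie between 0.50 and 0.97, while those of Cyld lie on both sides of 0.

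Tnfaip3 (Entrez gene 21929) encodes A20, an enzyme that cuts ubiquitin chains and also attaches them, and that limits NF-kB signalling downstream of TNF and Toll-like receptors. Its level with PBS was 8.72, 8.44, 7.93 and 8.69 on arrays 1 to 4, and with hepcidin 9.37, 8.93, 8.90 and 9.44. The groups did not overlap, which held for 1 of the 10 genes and for 0.845% of all genes with hepcidin higher. The array numbered 3 had the lowest level in both groups and the largest difference between them. The group means were 9.16 ± 0.28 and 8.44 ± 0.37 (SD, n = 4 in each group), and the differences in pairs 1 to 4 were 0.65, 0.50, 0.97 and 0.75. The log2 difference was 0.72 ± 0.19 (SE) with a 95% confidence interval from 0.29 to 1.14, an unadjusted limma p of 0.00385 and an adjusted p of 1. With the replicate block the SE was 0.092, and limma gave an adjusted p of 0.214, the smallest among the 10 genes.

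Tnip1 (57783) encodes ABIN-1, which links A20 to ubiquitinated proteins such as the regulatory subunit of the IκB kinase. It stood at 8.69, 8.35, 8.15 and 8.59 with PBS and at 9.11, 8.69, 8.71 and 8.68 with hepcidin. The hepcidin array numbered 1 was high, the other 3 lay close together, and the groups overlapped because the PBS array numbered 1 lay among them. The log2 difference was 0.35 ± 0.14 (SE), with 0.42, 0.34, 0.56 and 0.09 in pairs 1 to 4 (limma unadjusted p 0.0314, adjusted p of 1). Without the hepcidin array numbered 1 it was 0.25. Its unadjusted p was no longer under 0.05 when that array or the PBS array numbered 2 or 3 was left out. Tnip3 (414084) encodes ABIN-3, a smaller relative that also binds A20. Its PBS levels of 11.57, 11.65, 11.74 and 11.79 and hepcidin levels of 11.67, 11.77, 12.07 and 12.05 gave a log2 difference of 0.21 ± 0.11 (SE). Pairs 3 and 4, at 0.34 and 0.27, differed more than pairs 1 and 2, at 0.10 and 0.12. The unadjusted p was 0.0889 in limma and 0.0283 with the replicate block, with adjusted p-values of 1 and 0.970. Tnip2 (231130) encodes ABIN-2, which also stabilises a kinase of the MAP kinase branch. It stood at 7.35, 7.95, 7.66 and 7.95 with PBS and at 7.76, 7.87, 7.80 and 8.19 with hepcidin, so it was higher in 3 of 4 pairs. Its log2 difference was 0.18 ± 0.15 (SE), with a 95% confidence interval from -0.16 to 0.51, which holds both 0 and the value of Tnip1. It was 0.052 when PBS array 1 was left out and 0.0815 when hepcidin array 4 was.

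Cyld (74256) encodes a deubiquitinase that, like A20, counteracts ubiquitin chains in NF-kB signalling. With PBS it stood at 7.68, 7.90, 7.77 and 7.36 and with hepcidin at 7.76, 7.65, 7.73 and 7.56. It was higher in 2 pairs and lower in 2, from -0.25 in pair 2 to 0.20 in pair 4. The log2 difference was -0.0011 ± 0.12 (SE), and the 95% confidence interval from -0.26 to 0.26 leaves room for a change of that size in either direction.

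Birc3 (11796) and Birc2 (11797) encode the cellular inhibitors of apoptosis, ligases that bind TRAF2 at the TNF receptor. Birc3 stood at 8.94, 8.58, 8.47 and 8.41 with PBS and at 9.03, 8.85, 8.99 and 8.88 with hepcidin. The hepcidin arrays lay close together, with an SD of 0.086, and the PBS array numbered 1 lay within their range while the other 3 lay below it. The log2 difference of Birc3 was 0.34 ± 0.12 (SE), with 0.10, 0.27, 0.52 and 0.47 in pairs 1 to 4 (limma unadjusted p 0.0167, adjusted p of 1). Birc2 stood at 6.36, 6.60, 6.50 and 6.61 with PBS and at 6.60, 6.66, 6.50 and 6.42 with hepcidin. These groups overlapped almost wholly, and the log2 difference was 0.029 ± 0.090 (SE), with a 95% confidence interval from -0.17 to 0.23. Birc2 was the least variable of the 10 genes, with a range of 0.30 over the 8 arrays against 1.51 for Tnfaip3.

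Traf1 (22029) and Traf2 (22030) encode adaptors that join TNF receptor family members to the Birc2 and Birc3 products. TRAF1, unlike TRAF2, has no RING domain. Traf1 stood at 7.76, 7.09, 7.13 and 7.69 with PBS and at 7.91, 7.30, 7.76 and 7.95 with hepcidin. Numbers 1 and 4 were high in both groups and number 2 low in both, so the groups overlapped although each pair was higher with hepcidin. The log2 difference was 0.31 with an SE of 0.19 without the block and 0.095 with it, and the unadjusted limma p was 0.138 and 0.0120, with adjusted p-values of 1 and 0.871. The pair differences were 0.15, 0.21, 0.62 and 0.26, and without single arrays the log2 difference ran from 0.20 (PBS number 2 left out) to 0.45 (hepcidin number 2 left out). Traf2 stood at 6.85, 7.15, 7.30 and 7.02 with PBS and at 7.27, 7.23, 7.22 and 6.99 with hepcidin. Its log2 difference was 0.098 ± 0.11 (SE), with 0.42 in pair 1 and -0.077 to 0.079 in pairs 2 to 4, and it was 0.021 without the PBS array numbered 1.

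Rnf19b (75234) encodes a ligase of the RING-between-RING class, known from natural killer cells and macrophages. It stood at 9.28, 9.36, 9.11 and 9.64 with PBS and at 9.68, 9.59, 9.57 and 9.90 with hepcidin. The hepcidin arrays lay above the PBS arrays except for the PBS array numbered 4, and number 4 was the highest in both groups. The differences in pairs 1 to 4 were 0.40, 0.24, 0.46 and 0.26. The log2 difference was 0.34 ± 0.12 (SE; limma unadjusted p 0.0197, adjusted p of 1), and the SE with the block was 0.075.

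Related genes were compared on the same array to ask whether they differed in their response, as the log2 level of one gene minus that of the other, tested by a two-sided exact permutation test over the 8 arrays, with 7 comparisons. The smallest p that 4 against 4 arrays allow is 0.0286. After adjustment over the 7, a single comparison at that p could not fall under 0.05. The permutation test did not use the pairing by number. Tnfaip3 minus Cyld had the largest shift, from 0.77 ± 0.52 with PBS to 1.49 ± 0.32 with hepcidin (SD, n = 4), higher in 4 of 4 pairs by 0.55 to 1.01, with an exact p of 0.0857 and 0.400 after adjustment over the 7. Birc3 minus Birc2 shifted by 0.31 (exact p 0.143, adjusted 0.400) and was higher in 3 of 4 pairs, with -0.14 in pair 1 and 0.66 in pair 4. Whether the probe sets of these related genes pick up each other's RNA was not tested. Rnf19b minus Rnf19a, its closest relative in the pathway list, shifted by 0.34 (exact p 0.171, adjusted 0.400) and was higher in 4 of 4 pairs, though by only 0.038 in pair 4. Traf1 minus Traf2 shifted by 0.21, Tnip1 minus Tnip2 by 0.17 and Tnip1 minus Tnip3 by 0.15, each higher in 3 of 4 pairs with an exact permutation p of 0.543 (adjusted 0.633). Tnip3 minus Tnip2 shifted by 0.028 (exact p 0.857, adjusted 0.857). Single arrays moved several of these shifts. Without single arrays, Birc3 minus Birc2 ran from 0.21 to 0.47 (PBS numbers 4 and 1 left out), Rnf19b minus Rnf19a from 0.23 to 0.55 (hepcidin and PBS number 4), Traf1 minus Traf2 from 0.045 to 0.40 (PBS numbers 3 and 1) and Tnip1 minus Tnip2 from 0.020 to 0.38 (hepcidin and PBS number 1). No pair of related genes was shown to differ in its response, and with 4 arrays a group this does not show that they responded alike.

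**Figure D3:**
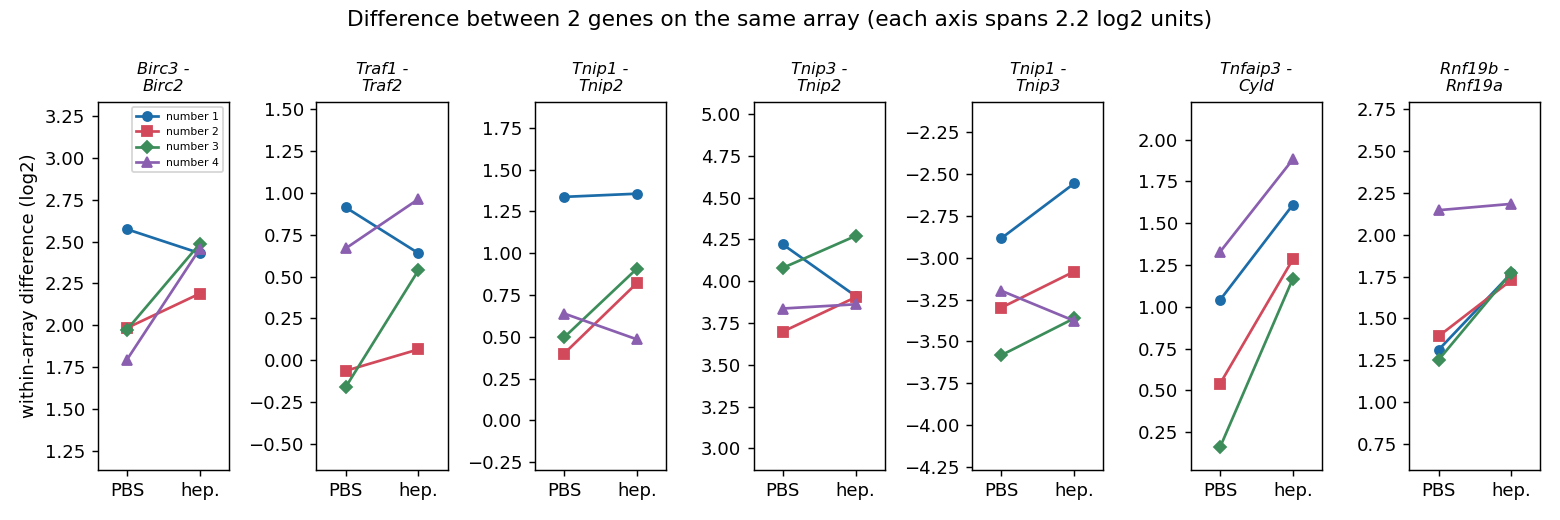
Difference in log2 level between 2 related genes on the same array (vertical axis, each spanning 2.2 units) with PBS and hepcidin, lines joining arrays with the same number. Tnfaip3 minus Cyld and Rnf19b minus Rnf19a are higher with hepcidin in 4 of 4 pairs, and the other 5 comparisons in 3 of 4.

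Levels were also compared between replicate numbers. In limma's F test of the number, with the treatment in the model, 0 of 10 passed an adjusted p of 0.05, against 5.60% of all genes and 11.9% of those whose mean level was 6 or more. Tnfaip3 (adjusted p 0.0540) and Traf1 (0.0608) came closest in that limma test. Tnfaip3 was lowest on number 3 in both groups and Traf1 on number 2. Tnip2, by contrast, was lowest on number 1 in both groups and Cyld on number 4 in both.

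The level of Tnfaip3 over the 8 arrays was set beside that of 8763 protein-coding genes other than the 10, each with a mean level of 6 or more. The 5 most alike were Gadd45b, a stress response gene (Pearson r 0.955 over 8 arrays), Nfkbia, the gene of IκBα (0.935), Mmachc, a gene of cobalamin processing (0.906), Irak2, a kinase gene of Toll-like receptor signalling (0.90), and Rasgef1b (0.892). Among the other 9 regulators, r to Tnfaip3 was 0.898 for Rnf19b, 0.869 for Tnip1, 0.797 for Traf1 and 0.726 for Birc3, and 0.382 for both Tnip2 and Tnip3. It was -0.27 for Cyld, -0.20 for Traf2 and -0.022 for Birc2. Among all genes, with Tnfaip3 itself at rank 1, Rnf19b had rank 28, Tnip1 58, Traf1 159 and Birc3 343. Tnip2 had rank 3854 and Tnip3 3856. These values describe arrays that share numbers and treatment, so both the difference between numbers and that between groups enter them. Nfkbia stood at 9.74 with PBS and 10.68 with hepcidin, a log2 difference of 0.94 ± 0.13 (SE), and Gadd45b at 8.53 and 8.88, a difference of 0.35 ± 0.10. Neither passed over all genes in limma, with an adjusted p of 0.217 for Nfkbia (0.141 with the replicate block) and 1 for Gadd45b (0.784).

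A list of 40 other genes of the ubiquitin arm of NF-kB signalling, of which 36 were measured, was described in the same way. It holds the linear ubiquitin ligase complex, further deubiquitinases, other TRAF and Pellino ligases, conjugating enzymes, and the TAK1 and IκB kinase adaptors. Of the 36, 22 were above and 14 below 0, against 12111 and 11900 of all 24011 genes. The median log2 difference of the 36 was 0.0081, and 0 passed over all genes in limma, against 0.00% of all genes. At an unadjusted p under 0.05 there were 0 higher and 0 lower, against 1.33% and 1.53% of all genes. The 3 with the smallest unadjusted p were Ube2n, Tab2 and Tab3. Ube2n, which encodes the conjugating enzyme for chains that activate TAK1, differed by 0.30 ± 0.22 (SE), with 0.86 and 0.61 in pairs 1 and 3 and -0.12 and -0.14 in pairs 2 and 4. The value of pair 1 rests on a PBS level of 5.19, under the 90th percentile of the background gauge, 5.54. Tab2 and Tab3 encode subunits that hold TAK1 on ubiquitin chains. Tab2 was at 10.03 with hepcidin and 10.13 with PBS, a log2 difference of -0.094 ± 0.070 (SE) without overlap between the groups, the only such gene of the 36, against 1.03% of all genes with hepcidin lower. Tab3 differed by -0.14 ± 0.12. Tab2, Tab3, Cblb and Traf5 were lower in 4 of 4 pairs, or 4 of 36 genes against 5.95% of all genes, the last 2 named after their values were seen. Traf5 differed by -0.18, and with the replicate block its unadjusted limma p was 0.0319 and its adjusted p 0.970. It was the only one of the 36 lower at an unadjusted p under 0.05 in that fit, against 2.57% of all genes. Among the 36, 0 were higher in all 4 pairs, against 5.69% of all genes. The genes of the linear ligase complex, Rbck1, Rnf31 and Sharpin, differed by 0.027, 0.14 and 0.0020, and Otulin, which cuts linear chains, by 0.024.

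**Figure D4:**
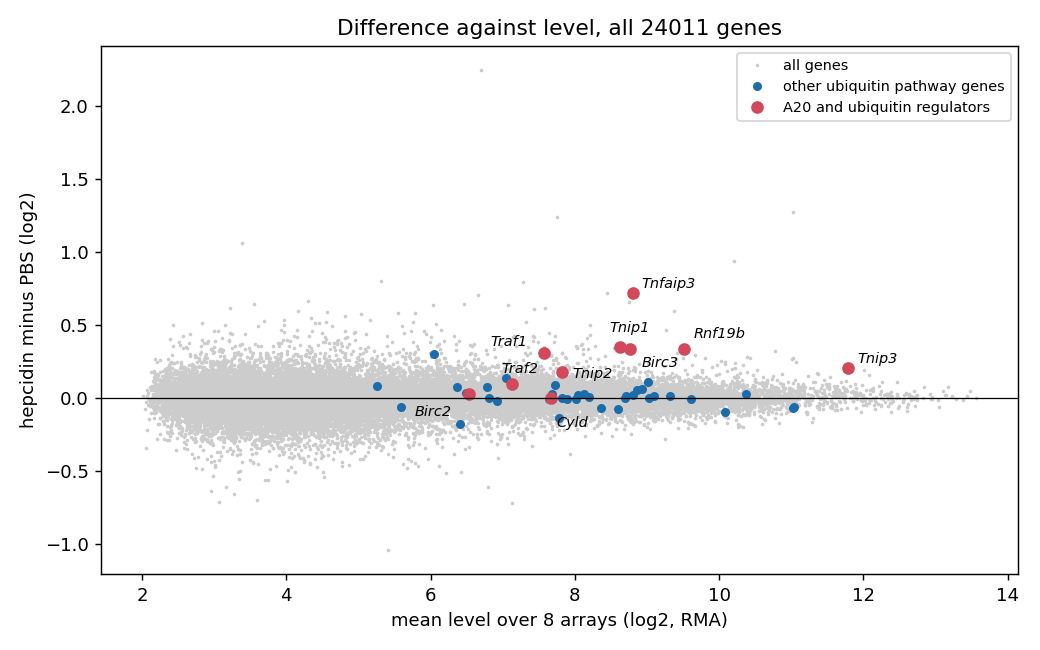
Log2 difference between hepcidin and PBS (vertical axis) against the mean level over the 8 arrays (horizontal axis, log2 RMA) for all 24011 genes (grey), the 36 other ubiquitin pathway genes (blue) and the 10 regulators (red). Tnfaip3, at 0.72, lies above the other 9 regulators and above the 36 pathway genes, whose values run from -0.18 to 0.30.

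Markers of other cells were compared between the groups as well. The mean of 8 dendritic cell markers was 4.43 to 4.49 on the PBS arrays and 4.23 to 4.42 on the hepcidin arrays, lower in 4 of 4 pairs, with 7 of 8 genes below 0 and PBS levels of 3.69 to 5.04. Those levels all lie under the 90th percentile of the background gauge, 5.54. The means of the B cell list and of the T and NK cell list were higher in 1 of 4 pairs each. Those of the endothelial and the fibroblast and stromal lists were higher in 2 of 4. The neutrophil and precursor list was higher in 1 of 4 pairs, with means of 4.55 to 5.80 with PBS and 4.35 to 5.77 with hepcidin. The macrophage list ranged from 10.38 to 10.85 with PBS and from 10.46 to 10.84 with hepcidin. The part of these lists in the differences of the 10 regulators was not tested. Without both arrays numbered 1, Tnfaip3, Tnip1 and Birc3 had an unadjusted limma p under 0.05, and with the replicate block Tnip3, Traf1 and Rnf19b did in addition. The shares of all genes in these fits were not counted.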

How the data were processed

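The authors deposited log2 expression values of 24973 probe sets on 8 arrays. The submitters' processing notes name RMA and affy 1.36.1. The sources used here give neither the probe set definition nor its genome build, and neither depth nor probe intensities were used. The platform annotation named 24015 probe sets, and the brightest was kept for 4 symbols with more than 1, which left 24011 genes. Values were used as deposited, with no filter on low levels. RMA compresses ratios of dim genes.

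Hepcidin was compared with PBS in limma 3.58.1 (R 4.3.3), adjusted by Benjamini-Hochberg over all genes at a threshold of 0.05, without a block. The arrays' deviations from their group's mean had correlations of 0.344 to 0.548 between same-numbered arrays and -0.356 to 0.124 between others, so the numbers in the titles pair the arrays. The number was then used as a fixed or random block. Other settings were 3 normalizations, filters on dim genes, all probe sets, other variance models, array weights and left-out arrays. Ratios of related genes were tested with scipy 1.17.1 by exact permutation. Figures were drawn with matplotlib 3.10.9.

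All 10 genes are named. Of the pathway list those with an unadjusted p under 0.05 are named, or the 3 with the smallest. Genes like Tnfaip3 are the 5 with the highest Pearson r at a mean level of at least 6. The genes and lists were chosen with earlier results of these data known. Promoters came from RefSeq (GRCm38.p6).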

Additional observations from a re-analysis of the deposited data

Results flagged for a closer look

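Of 20 groups of 4 arrays checked (10 genes in 2 groups), 1 had an array far from the others by Dixon's criterion, which chance meets in about 1 of 20 groups. The Tnip1 level on the hepcidin array numbered 1 was 9.11, against 8.68 to 8.71 on the other 3 hepcidin arrays. The PBS array numbered 1 had the highest Tnip1 level of its group as well, at 8.69.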

How the results depend on the processing

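In limma, 0 of the 10 genes passed over all genes in each of the 20 alternatives run. Among all genes 0 to 5 passed in these fits, the most with the random replicate block. Of the 10, 9 or 10 were above 0 except without both arrays numbered 1, where 7 were. With all arrays and no block, 12111 of 24011 genes were above 0. Tnfaip3 had an unadjusted p under 0.05 in all 20 alternatives. Leaving out single arrays gave 2 to 5 genes higher at an unadjusted p under 0.05, against 4 with all arrays, and 0 to 1 pathway genes, against 0. The share of all genes at such a p was not counted in fits with arrays left out. The fixed replicate block gave 6 genes and 1 pathway gene, with both arrays numbered 1 left out as well. It changed no call over all genes among the 10 genes or the pathway list. Differences near 0 turned sign. Cyld was at 0.015 with median centring and -0.11 to 0.073 without single arrays. Birc2 was at -0.041 and Traf2 at -0.0097 when both arrays numbered 1 were left out, in either fit (replicate block or none), and Birc2 at -0.023 to 0.070 without single arrays. Without single arrays Tnip3 minus Tnip2 ran from -0.066 to 0.12 and Tnip1 minus Tnip3 from -0.034 to 0.27. The cause was not tested. The sign-flip test over 4 pairs (replicate block) cannot go below 0.125. For the 7 ratios, its adjusted p ran from 0.4375, for Tnfaip3 minus Cyld among others, to 0.875, for Tnip3 minus Tnip2. The number of arrays limits the precision.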
